A study of Arabidopsis thaliana with 12 samples.

Results

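The D-type cyclins of Arabidopsis thaliana, a family of 10 genes in the subgroups CYCD1 to CYCD7, were followed in seedlings of 4 genotypes. The members were taken by locus ID, and all 10 were found among the 33602 loci counted in each library. Reads were counted in 3 libraries per genotype: DPB2oe1.11.5, DPB2oe12.1.5, abo4-1 and wild-type Col-0. Both DPB2oe lines overexpress DPB2, which encodes an accessory subunit of DNA polymerase epsilon, the enzyme that copies the leading strand. The promoter behind the overexpression is not given in the sources used here, and each is a single line. In abo4-1 the catalytic subunit of that polymerase, POL2A, is the mutated gene. All plants were Col-0 seedlings without treatment, grown to stage 1.02 at 20 °C and 65% humidity under 16 h of light, with MS salts at 0.5x. The title of the series names a deficiency of this polymerase, so each mutant is set against Col-0 here and the mutants against each other.

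D-type cyclins bind the kinase CDKA;1 at the entry into the cell cycle. The complex phosphorylates the retinoblastoma protein RBR1, which frees E2F transcription factors to switch on genes of DNA replication. The family reads out hormones, sugar and developmental signals, and inhibitors of the KRP and SIM/SMR families hold the complex in check.

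The genotype labels were checked first, in CPM (counts per 1000000 counted reads after TMM scaling). In replicate order, DPB2 measured 118, 106 and 117 CPM in the DPB2oe1.11.5 libraries, 117, 109.9 and 117 CPM in the DPB2oe12.1.5 libraries, and 2.79, 1.76 and 4.14 CPM in those of Col-0. POL2A measured 26.4, 25.5 and 24.1 CPM in abo4-1, against 17.4, 16.2 and 15.7 CPM in Col-0. The series' design text speaks of a knock-out for abo4-1. Every abo4-1 library was nevertheless above Col-0 in POL2A transcript, without passing edgeR's test (log2 fold change 0.62 ± 0.17, adjusted p = 0.177), and a transcript level does not check a change in the protein. In DPB2oe1.11.5 POL2A rose, with 33.4, 24.3 and 30.7 CPM (0.84 ± 0.17, adjusted p = 0.0453), a call that ended without any 1 of 5 of the 6 libraries (adjusted p = 0.105 to 0.2265 for POL2A). Green tissue and root markers were present in all libraries, as in whole seedlings. The libraries held 10902547 to 29456111 counted reads. They differed in transcripts that mark the time of day. LHY, a clock gene that peaks in the morning, was highest in replicate 2 of DPB2oe1.11.5 (217 CPM), replicates 1 and 2 of DPB2oe12.1.5 (202 and 197 CPM) and replicate 2 of abo4-1 (173 CPM). The remaining 8 libraries, all of Col-0 among them, had 3.97 to 48.1 CPM. The labels give no hour of harvest. Whether the replicates came from separate cultures is not stated either, so the p-values measure the spread between these libraries, which may be technical. In whole seedlings, fewer cells of a type and less RNA per cell cannot be told apart.

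The 10 loci lie on all 5 chromosomes of TAIR10.1, and all are protein-coding. CYCD1;1 (AT1G70210) is at chr1:26439556-26443007 on the plus strand with 6 exons, and CYCD2;1 (AT2G22490) at chr2:9553797-9556167 on the minus strand with 6 exons. CYCD3;1 (AT4G34160) is at chr4:16357421-16359565 on the plus strand with 4 exons, CYCD3;2 (AT5G67260) at chr5:26836139-26839597 on the plus strand with 6 exons, and CYCD3;3 (AT3G50070) at chr3:18565134-18566834 on the minus strand with 4 exons. CYCD4;1 (AT5G65420) is at chr5:26141470-26144020 on the minus strand with 7 exons and CYCD4;2 (AT5G10440) at chr5:3280487-3282553 on the minus strand with 6 exons. CYCD5;1 (AT4G37630) is at chr4:17679168-17681264 on the plus strand with 4 exons, CYCD6;1 (AT4G03270) at chr4:1431844-1433861 on the minus strand with 6 exons, and CYCD7;1 (AT5G02110) at chr5:416917-418666 on the plus strand with 3 exons. The longest exact run of bases that 2 member transcripts share was 37, within the CYCD4 pair, and the next was 24, between CYCD3;2 and CYCD3;3. Reads with several equal hits had been removed before counting, and the counts of these close pairs carry that limit.

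E2F factors bind short words in front of replication genes. The 250 bases before the annotated start of CYCD6;1, the 1 tested member with every mutant library above Col-0, were searched on both strands for TTTCCCGC, TTTGGCGC, TTTGCCGC and TTTCGCGC, where a match of 1 word may overlap a match of another. The window held none of them. Of 27443 windows of this length before protein-coding genes, 387 (1.41%) held such a word, as did 1 of the 10 D-type cyclin windows (10%) and 9 of 20 genes on a list of E2F targets of S phase (45%). The window is shown for that member as RefSeq TAIR10.1 sequence, read 5′ to 3′ on the gene's strand up to the annotated start and all in lower case since no word matched.
CYCD6;1, chr4:1433862-1434111, minus strand: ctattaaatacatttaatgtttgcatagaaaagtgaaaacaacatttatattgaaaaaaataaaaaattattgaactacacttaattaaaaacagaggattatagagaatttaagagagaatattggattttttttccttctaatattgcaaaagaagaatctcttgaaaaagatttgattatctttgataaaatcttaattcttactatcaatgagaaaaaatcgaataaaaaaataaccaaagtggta
No match says only that these letters are not in this window.

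The family was dominated by CYCD3 transcripts in all 4 genotypes (plot of the make-up by library). Levels of different genes are compared in TPM, which divides by transcript length. The 3 CYCD3 genes respond to cytokinin and hold cells in mitotic cycling rather than endoreduplication. They made up 65.2% ± 1.48 of the family's TPM in DPB2oe1.11.5, against 63.3% ± 0.911 in Col-0 (SD, n = 3 each). The same share was 67.0% ± 1.98 in DPB2oe12.1.5 and 66.3% ± 2.88 in abo4-1, and over single libraries it ran only from 62.5% to 69.5%. In Col-0 the levels from high to low were 24.7 ± 0.854 TPM for CYCD3;2, 21.4 ± 2.07 for CYCD3;1, 15.3 ± 0.83 for CYCD1;1, 9.64 ± 1.82 for CYCD3;3 and 9.04 ± 0.59 for CYCD2;1. The lower part of the order was 3.23 ± 0.446 TPM for CYCD5;1, 2.27 ± 0.353 for CYCD6;1, 1.24 ± 0.603 for CYCD4;2, 1.07 ± 0.647 for CYCD4;1 and 0.158 ± 0.0573 for CYCD7;1. Among neighbours in this Col-0 order, the libraries of CYCD3;3 overlapped those of CYCD2;1, and the CYCD4 pair overlapped. Every other pair of neighbours was apart. In abo4-1 CYCD3;1 came first, with 34.5 to 35.6 TPM over its libraries, and did not overlap CYCD3;2 with 22.2 to 34.3 TPM. CYCD3;2 stayed first in both DPB2oe lines. It was apart from CYCD3;1 in DPB2oe1.11.5, with 37.7 to 44.0 TPM against 26.9 to 35.8 TPM. The same 2 genes overlapped in DPB2oe12.1.5, with 31.6 to 36.5 and 28.4 to 34.1 TPM.

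**Figure D1:**
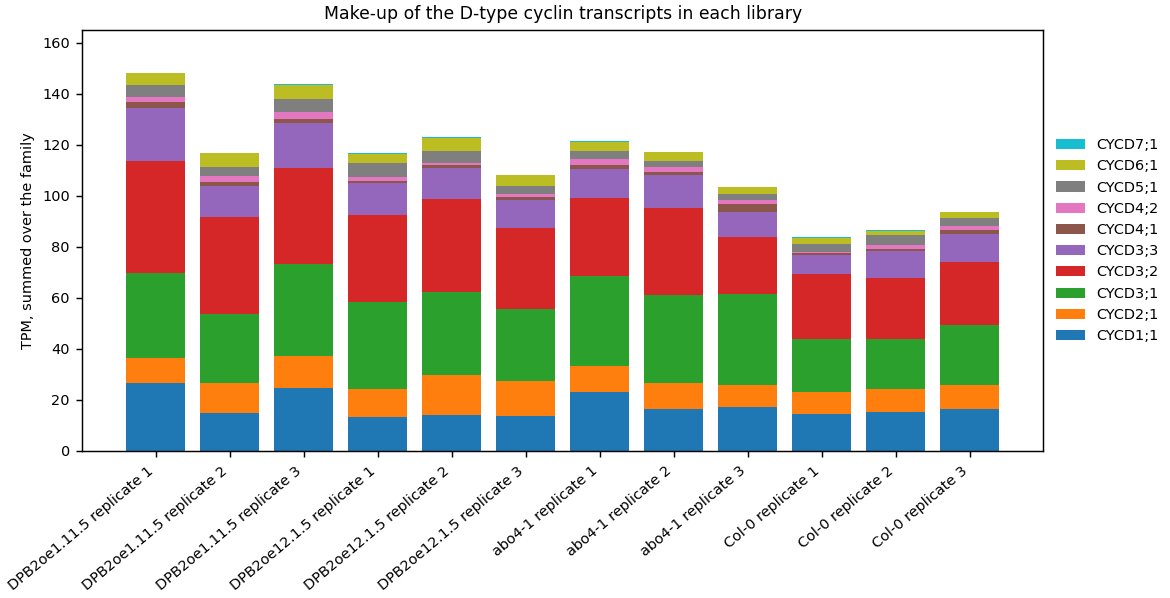
TPM of the 10 D-type cyclins stacked for each of the 12 libraries, with genotypes from left to right as DPB2oe1.11.5, DPB2oe12.1.5, abo4-1 and Col-0. The stacks reach 104 to 148 TPM in the mutants and 83.8 to 93.9 TPM in Col-0, and the 3 CYCD3 genes fill 62.5% to 69.5% of every stack.

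The summed level of the family lay above Col-0 in all 9 mutant libraries. The DPB2oe1.11.5 sums were 148, 117 and 144 TPM, those of DPB2oe12.1.5 were 117, 123 and 108 TPM, those of abo4-1 were 121, 117 and 104 TPM, and those of Col-0 were 83.8, 86.5 and 93.9 TPM. In CPM, which is TMM-scaled while TPM here is not, the gap was narrow. On that scale the lowest mutant library, replicate 2 of DPB2oe1.11.5, had 129.8 CPM and the highest Col-0 library had 128.8 CPM. The mean sums were 146 ± 14.2 CPM for DPB2oe1.11.5, 143 ± 4.79 CPM for DPB2oe12.1.5, 149.9 ± 10.9 CPM for abo4-1 and 121 ± 7.43 CPM for Col-0 (SD, n = 3 each). No test was run on the sum.

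**Figure D2:**
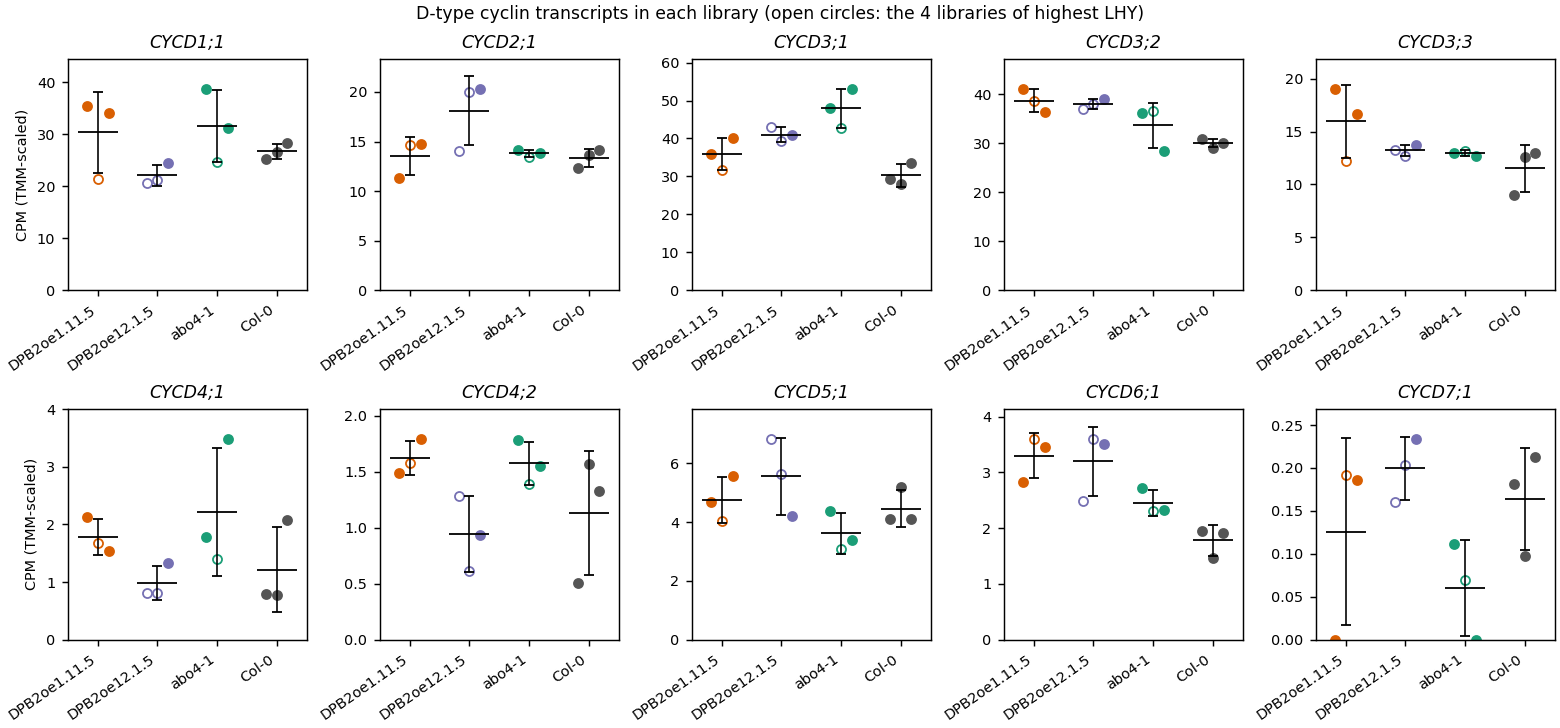
CPM of each D-type cyclin in each library, one panel per gene with its own linear axis from 0, where points are libraries, open circles the 4 libraries of highest LHY, and bars the mean ± SD of 3 libraries. CYCD6;1 has all 9 mutant points (2.30 to 3.60 CPM) above the 3 Col-0 points (1.47 to 1.96 CPM), and the last panel stays under 0.25 CPM.

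Of the 10 members, 9 passed the filter on low counts and were tested with edgeR's quasi-likelihood test, with Benjamini-Hochberg adjustment over all 19924 loci tested. In abo4-1 against Col-0, 1 of the 9 was called (adjusted p under 0.05), and it rose. Of all loci tested, 0.783% were called in that comparison and 0.567% were called higher. In both DPB2oe lines 0 of the 9 were called. The share of all loci called was 0.708% for DPB2oe1.11.5 and 0.427% for DPB2oe12.1.5. DESeq2 also called 1 in abo4-1 and 0 in each DPB2oe line. At an unadjusted p under 0.05 there were 3 of 9 for DPB2oe1.11.5 (14.9% of all loci), 4 of 9 for DPB2oe12.1.5 (16.7%) and 1 of 9 for abo4-1 (8.13%). Members with all 3 mutant libraries above the 3 Col-0 libraries numbered 2 for DPB2oe1.11.5 (11% of all loci), 3 for DPB2oe12.1.5 (11.5%) and 2 for abo4-1 (8.13%). In DPB2oe12.1.5 a further 1 lay wholly below (11.4%). The median log2 fold change of the 9 was 0.36 for DPB2oe1.11.5, 0.33 for DPB2oe12.1.5 and 0.24 for abo4-1, beside 0.00 for all loci tested in each. Estimates were above 0 for 9, 6 and 8 of the 9 in that order. All 3 comparisons use the same 3 Col-0 libraries, so they are not independent of one another.

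**Figure D3:**
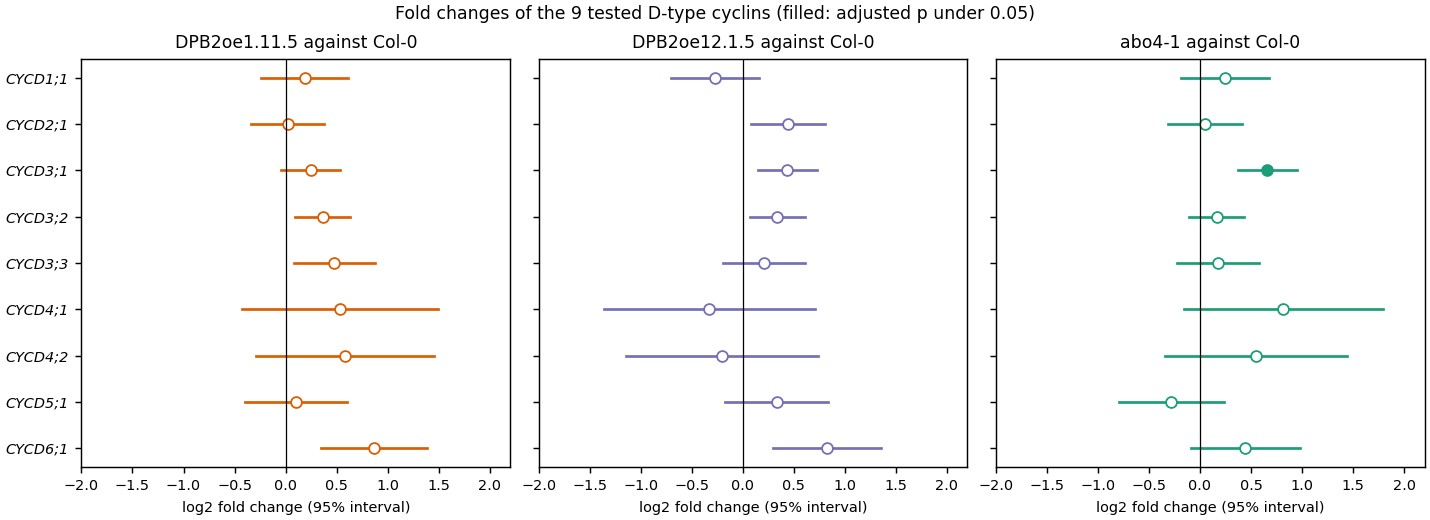
Log2 fold changes of the 9 tested D-type cyclins against Col-0 with 95% intervals, one panel per mutant, where the filled point is the member with an adjusted p under 0.05. CYCD3;1 in abo4-1 stands at 0.66, and CYCD6;1 has the highest estimate of the family in both overexpressing lines (0.87 for DPB2oe1.11.5 and 0.83 for DPB2oe12.1.5).

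CYCD3;1, a cytokinin-induced cyclin, rose in abo4-1. It had 48.0, 42.7 and 53.0 CPM in abo4-1, against 29.3, 28.0 and 33.6 CPM in Col-0. All abo4-1 libraries were above all Col-0 libraries, and the fold was 1.58 (log2 0.66 ± 0.13 SE, 95% interval 0.37 to 0.95, edgeR adjusted p = 0.0399). The DPB2oe12.1.5 libraries, with 42.9, 39.2 and 40.95 CPM, were again all above Col-0, yet the log2 fold change of 0.44 ± 0.13 did not pass (adjusted p = 0.146). The DPB2oe1.11.5 libraries, with 35.9, 31.8 and 40.2 CPM, overlapped Col-0 (log2 0.25 ± 0.13, adjusted p = 0.428). They were all below those of abo4-1, a difference of -0.41 ± 0.13 that did not pass (adjusted p = 0.137). DPB2oe12.1.5 overlapped abo4-1 (-0.22 ± 0.13, adjusted p = 0.457).

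The call was close to the threshold. It ended without any 1 of the 6 libraries of abo4-1 and Col-0, where the log2 fold change ran from 0.58 to 0.74 and the adjusted p from 0.0635 to 0.209. It also ended when only these 6 libraries were fitted (0.66, adjusted p = 0.133) or when library totals replaced the TMM factors (0.68, adjusted p = 0.0514 for CYCD3;1). Its neighbour AT4G34150 overlaps it on the same strand by its last exon and had a log2 fold change of -0.51 in abo4-1 (adjusted p = 0.809). Summed markers of proliferating cells and of the stomatal lineage were also higher in abo4-1. The summed level of 5 markers of proliferating cells was 154.9 to 178 CPM in abo4-1 against 96.05 to 103 CPM in Col-0. That of 10 stomatal lineage markers was 117 to 136 CPM in abo4-1 against 68.9 to 89.9 CPM in Col-0. Of the stomatal estimates 7 of 10 were above 0, and TMM and POLAR weighed most in the sum. Mean TMM was 56.1 CPM in abo4-1 against 32.4 CPM in Col-0, and mean POLAR 24.9 against 7.83 CPM. Lower means in abo4-1 were seen for MUTE (0.551 against 1.03 CPM), FAMA (5.28 against 7.95 CPM) and EPF1 (2.41 against 2.59 CPM). On each list edgeR called 1 gene in abo4-1. These were the mitotic kinase gene CDKB2;1 (log2 0.90 ± 0.15, adjusted p = 0.012) and POLAR, a polarity gene of stomatal precursors (1.66 ± 0.23, adjusted p = 0.00278). The first of these calls ended without replicate 1 of abo4-1 or replicate 2 or 3 of Col-0 (adjusted p = 0.0599 to 0.084 for CDKB2;1). At an unadjusted p under 0.05 there were 5 of the 5 proliferation markers and 4 of the 10 stomatal ones in abo4-1 (8.13% of all loci). DESeq2 called 2 on each list in abo4-1, all higher. In the DPB2oe lines edgeR called no gene on either list. In DPB2oe1.11.5, 2 proliferation markers, both called by DESeq2, and 3 stomatal markers had an unadjusted p under 0.05 (14.9% of all loci). For DPB2oe12.1.5 it was seen for 0 and 2 (16.7%), with 0 called by DESeq2. The proliferation sums were 105 to 157 CPM for DPB2oe1.11.5 and 103 to 114 CPM for DPB2oe12.1.5. The stomatal sums were 81.6 to 94.7 CPM and 65.8 to 89.7 CPM in the same order. Whether these cells have a part in the CYCD3;1 level was not tested.

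The other two CYCD3 genes were not called in any comparison. CYCD3;2 measured 41.1, 38.7 and 36.4 CPM in the DPB2oe1.11.5 libraries, 37.0, 38.1 and 39.2 CPM in those of DPB2oe12.1.5, 36.1, 36.6 and 28.4 CPM in those of abo4-1, and 30.95, 29.2 and 30.2 CPM in those of Col-0. Both DPB2oe lines were wholly above Col-0 without passing the test, with log2 fold changes of 0.36 ± 0.13 for DPB2oe1.11.5 (adjusted p = 0.189) and 0.34 ± 0.13 for DPB2oe12.1.5 (adjusted p = 0.209). The abo4-1 libraries overlapped Col-0 (0.16 ± 0.13, adjusted p = 0.833). An opposite-strand neighbour that overlaps the gene, AT5G67265, had 14 counts over the 12 libraries. CYCD3;3 measured 19.0, 12.2 and 16.7 CPM in the DPB2oe1.11.5 libraries, 13.3, 12.7 and 13.7 CPM in those of DPB2oe12.1.5, 13.0, 13.2 and 12.7 CPM in those of abo4-1, and 8.95, 12.6 and 13.0 CPM in those of Col-0. Every mutant overlapped Col-0, and the highest estimate was 0.48 ± 0.18 in DPB2oe1.11.5 (adjusted p = 0.236).

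CYCD6;1 drives formative divisions of the root ground tissue under the transcription factors SHR and SCR. It was the only tested member with all 9 mutant libraries above all 3 Col-0 libraries, which held for 1.16% of all loci tested. The DPB2oe1.11.5 libraries had 2.83, 3.59 and 3.46 CPM, those of DPB2oe12.1.5 had 2.49, 3.60 and 3.51 CPM, those of abo4-1 had 2.72, 2.30 and 2.33 CPM, and those of Col-0 had 1.96, 1.47 and 1.91 CPM. None of the 3 differences passed. The log2 fold changes were 0.87 ± 0.24 for DPB2oe1.11.5 (adjusted p = 0.12), 0.83 ± 0.25 for DPB2oe12.1.5 (adjusted p = 0.136) and 0.44 ± 0.25 for abo4-1 (adjusted p = 0.729), from 15 to 75 counts per library. AT4G03260 overlaps the gene on the opposite strand and held far more reads (20575 over the 12 libraries). It was not called, with log2 fold changes of 0.15, 0.36 and 0.15 in the same order. Whether strand was used in counting is not given in the sources used here. SHR had 14.7, 18.5 and 16.4 CPM in DPB2oe1.11.5 against 24.8, 25.7 and 26.05 CPM in abo4-1 and fell there (-0.62 ± 0.14, adjusted p = 0.0477). With the replicate block this call ended (SHR at -0.63, adjusted p = 0.0511). It also ended in 5 further settings, among them library totals (SHR at -0.40, adjusted p = 0.145), and without any 1 of 5 of the 6 libraries, replicate 2 of DPB2oe1.11.5 being the exception. Neither SHR nor SCR was called against Col-0, where SHR had 24.2, 19.96 and 21.5 CPM. SHR was wholly below Col-0 in DPB2oe1.11.5 (-0.405 ± 0.143, edgeR adjusted p = 0.195) and wholly above it in abo4-1. In DPB2oe12.1.5 SHR overlapped Col-0. SCR was wholly above Col-0 in DPB2oe12.1.5 (0.736 ± 0.3, edgeR adjusted p = 0.257) and overlapped it in DPB2oe1.11.5. The summed CPM of 5 root meristem and endodermis markers, SHR and SCR among them, was 40.6 to 67.0 in DPB2oe1.11.5, 62.6 to 83.5 for DPB2oe12.1.5 and 55.3 to 77.8 for abo4-1, against 45.7 to 58.8 for Col-0. SHR and SCR weighed most in this sum, with means of 21.88 and 26.58 CPM in Col-0. WOX5, PLT1 and PLT2 had Col-0 means of 0.5234, 1.996 and 0.9832 CPM, so the sum says little about them. In DPB2oe1.11.5 the estimate of SHR was below 0 and that of SCR above 0 (0.259 ± 0.299, edgeR adjusted p = 0.742). Of the 5 markers edgeR and DESeq2 called 0 against Col-0. An unadjusted p under 0.05 was seen for 1, 1 and 0 of them (14.9%, 16.7% and 8.13% of all loci). Their part in the CYCD6;1 levels was not tested.

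CYCD1;1, which acts in cell-cycle entry during germination, differed between libraries of the same genotype. The DPB2oe1.11.5 libraries had 35.5, 21.5 and 34.2 CPM, those of DPB2oe12.1.5 had 20.7, 21.1 and 24.4 CPM, those of abo4-1 had 38.7, 24.8 and 31.3 CPM, and those of Col-0 had 25.3, 26.5 and 28.3 CPM. In each mutant the libraries of highest LHY had the lowest values. It was the 1 of 9 members with this pattern, beside 13.3% of all loci tested, and 0 of 9 had the reverse, beside 13%. A count of 1 of 9 is near that share, so the pattern is not particular to this gene. Among the other abo4-1 libraries, replicate 1 had more LHY than replicate 3 (26.6 against 3.97 CPM) and also more CYCD1;1. With log2 LHY added to the edgeR model, the slope of CYCD1;1 was -0.10 ± 0.03 log2 units per log2 unit of LHY (adjusted p = 0.0472). The same fit called a slope for 11.7% of all loci and for no other member. Against Col-0 the log2 fold changes were 0.19 ± 0.20 for DPB2oe1.11.5 (adjusted p = 0.715), -0.27 ± 0.20 for DPB2oe12.1.5 (adjusted p = 0.497) and 0.24 ± 0.20 for abo4-1 (adjusted p = 0.856). With LHY in the model the estimate for DPB2oe12.1.5 was 0.02. The libraries of DPB2oe12.1.5 were wholly below those of Col-0 and of abo4-1, and 2 of its 3 libraries are among the 4 of highest LHY, while Col-0 has none of them. The level of LHY and the genotype therefore cannot be fully told apart for this gene. An opposite-strand neighbour that overlaps it, AT1G70209, had 3 counts in all.

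**Figure D4:**
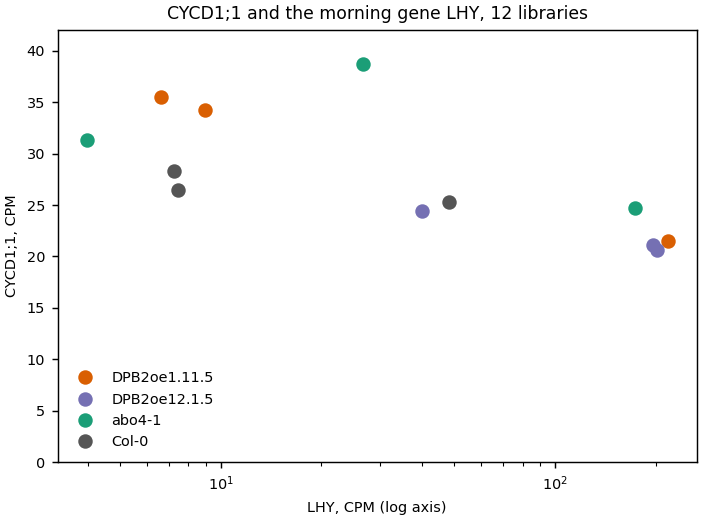
CPM of CYCD1;1 (linear axis from 0) against CPM of the morning gene LHY (log axis) in the 12 libraries, coloured by genotype. The 4 libraries with LHY of 173 CPM or more have 20.7 to 24.8 CPM of the cyclin.

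CYCD2;1, a sugar-responsive cyclin, measured 11.3, 14.6 and 14.7 CPM in the DPB2oe1.11.5 libraries, 14.1, 19.98 and 20.3 CPM in those of DPB2oe12.1.5, 14.2, 13.5 and 13.9 CPM in those of abo4-1, and 12.3, 13.6 and 14.1 CPM in those of Col-0. Replicates 2 and 3 of DPB2oe12.1.5 stood above all other libraries, and replicate 1 did not. The estimate for DPB2oe12.1.5 against Col-0 was 0.44 ± 0.17 (adjusted p = 0.219). Those for DPB2oe1.11.5 and abo4-1 were 0.02 ± 0.17 and 0.05 ± 0.17, with 95% intervals of -0.34 to 0.38 and -0.31 to 0.41.

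The CYCD4 pair, which acts in lateral root formation and in the stomatal lineage of the hypocotyl, was near the limit of counting. CYCD4;1 measured 2.14, 1.68 and 1.55 CPM in the DPB2oe1.11.5 libraries, 0.804, 0.816 and 1.33 CPM in those of DPB2oe12.1.5, 1.78, 1.39 and 3.49 CPM in those of abo4-1, and 0.797, 0.783 and 2.07 CPM in those of Col-0. CYCD4;2 measured 1.49, 1.58 and 1.79 CPM in the DPB2oe1.11.5 libraries, 1.29, 0.612 and 0.936 CPM in those of DPB2oe12.1.5, 1.78, 1.39 and 1.55 CPM in those of abo4-1, and 0.507, 1.57 and 1.33 CPM in those of Col-0. Each value rests on 8 to 43 counts, and every mutant overlapped Col-0. Both genes were wholly below abo4-1 in DPB2oe12.1.5, by -1.15 ± 0.47 for the first (adjusted p = 0.278) and -0.75 ± 0.43 for the second (adjusted p = 0.429). Both were wholly above DPB2oe12.1.5 in the other overexpressing line, by 0.87 ± 0.47 (adjusted p = 0.341) and 0.79 ± 0.42 (adjusted p = 0.337). None of these passed.

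CYCD5;1 and CYCD7;1 act in divisions of the stomatal lineage. The first measured 4.67, 4.03 and 5.57 CPM in the DPB2oe1.11.5 libraries, 6.83, 5.64 and 4.21 CPM in those of DPB2oe12.1.5, 4.39, 3.07 and 3.39 CPM in those of abo4-1, and 4.10, 5.18 and 4.09 CPM in those of Col-0. It overlapped Col-0 in every mutant, with log2 fold changes of 0.10 ± 0.23 for DPB2oe1.11.5 (adjusted p = 0.88), 0.33 ± 0.23 for DPB2oe12.1.5 (adjusted p = 0.483) and -0.28 ± 0.24 for abo4-1 (adjusted p = 0.862). In abo4-1, 2 of its 3 values were below every Col-0 library. The second failed the filter and has no fold or test. It had 0, 4 and 3 counts in DPB2oe1.11.5, 2, 3 and 3 counts for DPB2oe12.1.5 and 2, 1 and 0 counts for abo4-1, against 5, 1 and 4 counts for Col-0. A count of 0 allows up to 3 counts, or 0.149 CPM in replicate 1 of DPB2oe1.11.5 and 0.291 CPM in replicate 3 of abo4-1, for counting error only. No difference was detectable at this depth.

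Between the mutants, 0 of the 9 members were called by edgeR in any of the 3 pairs, and DESeq2 called 0 as well. For DPB2oe1.11.5 against DPB2oe12.1.5, 2 of 9 had an unadjusted p under 0.05 (17.9% of all loci, with 0.0301% called) and 2 lay wholly above (10.1%). For DPB2oe1.11.5 against abo4-1, 1 had such a p (16.4%, with 1.64% called), 1 lay wholly above (10.1%) and 1 wholly below (11.8%). For DPB2oe12.1.5 against abo4-1, 4 had such a p (14.9%, with 0.713% called), 1 lay wholly above (8.91%) and 3 wholly below (10.3%). The difference between the DPB2oe lines with the lowest adjusted p was that of CYCD2;1 (-0.42 ± 0.17, adjusted p = 0.217), followed by CYCD1;1 (0.46 ± 0.20, adjusted p = 0.253). The second of these was called once replicate 2 of DPB2oe1.11.5, a library of high LHY, was left out (CYCD1;1 then at 0.67, adjusted p = 0.0442). For DPB2oe12.1.5 against abo4-1 the lowest adjusted p were again that of CYCD1;1 (-0.52 ± 0.20, adjusted p = 0.248) and that of CYCD5;1 (0.61 ± 0.24, adjusted p = 0.25).

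Around the family, edgeR called genes against Col-0 among the inhibitors, the E2F pathway and its targets (plot of the gene lists). Of 9 CDK partners and activating kinases, CDKA;1 among them, edgeR called 0 against Col-0 in each mutant. An unadjusted p under 0.05 was seen for 3 of them with DPB2oe1.11.5, 0 with DPB2oe12.1.5 and 2 with abo4-1, and DESeq2 called 0, 0 and 1. Of all loci tested, 14.9%, 16.7% and 8.13% had such a p in the same order. The shares called by edgeR were 0.708%, 0.427% and 0.783%. Both sets of shares apply to every list that follows. Of 16 KRP and SIM/SMR inhibitors 1 rose in each DPB2oe line, 2 rose in abo4-1 and 0 fell, with list medians of 0.01 for DPB2oe1.11.5, 0.11 for DPB2oe12.1.5 and 0.16 for abo4-1. DESeq2 called 2 in each mutant, all higher, and 5, 2 and 2 had an unadjusted p under 0.05. SMR7, an inhibitor gene induced by DNA damage, measured 3.98, 6.37 and 5.94 CPM in the DPB2oe1.11.5 libraries, 11.7, 9.79 and 10.9 CPM in those of DPB2oe12.1.5, 19.9, 21.4 and 29.6 CPM in those of abo4-1, and 1.52, 1.17 and 0.584 CPM in those of Col-0. The 4 genotypes did not overlap one another in SMR7. Between the mutants, edgeR called 0 of the 16 inhibitors for DPB2oe1.11.5 against DPB2oe12.1.5 and 0 for DPB2oe12.1.5 against abo4-1. For DPB2oe1.11.5 against abo4-1 it called 1, lower. DESeq2 called 1, 1 and 2 in these pairs, all lower. Against Col-0 the edgeR log2 fold changes of SMR7 were 2.28 ± 0.31 for DPB2oe1.11.5 (adjusted p = 0.00524), 3.27 ± 0.31 for DPB2oe12.1.5 (adjusted p = 0.000314) and 4.39 ± 0.31 for abo4-1 (adjusted p = 7.43e-06). SMR5, likewise induced by DNA damage, had 33, 61 and 7 counts in abo4-1 and 3, 0 and 5 counts in Col-0 (3.96 ± 0.79, adjusted p = 0.0387). That call ended without any 1 of 5 of the 6 libraries, replicate 3 of abo4-1 being the exception, with adjusted p of 0.0835 to 0.187 for SMR5. It also ended without the 4 libraries of highest LHY (adjusted p = 0.097 for SMR5). SMR5 had 18, 39 and 10 counts in DPB2oe1.11.5 (2.96 ± 0.82, adjusted p = 0.12) and 23, 44 and 21 counts in DPB2oe12.1.5 (3.88 ± 0.80, adjusted p = 0.0595). Both lines were wholly above Col-0 without passing, and no difference between mutants in this gene passed.

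RBR1, the E2F and DP factors and the DEL repressors form a list of 9. It held 1 called gene in abo4-1 by edgeR and by DESeq2 and 0 in the DPB2oe lines by either, with 3 members at an unadjusted p under 0.05 in abo4-1, 2 with DPB2oe1.11.5 and 3 with DPB2oe12.1.5. The called gene was DEL3, an atypical E2F repressor, with 7.12, 5.93 and 6.20 CPM in abo4-1 against 2.57, 3.62 and 2.71 CPM in Col-0 (1.14 ± 0.22, adjusted p = 0.0299). The call ended without any 1 of the 6 libraries (adjusted p = 0.0536 to 0.161 for DEL3), with the 6 libraries alone (0.076) and without the 4 libraries of highest LHY (0.0519). Of 20 E2F targets of S phase 1 rose in each DPB2oe line, 3 rose in abo4-1 and 0 fell, with list medians of 0.43 for DPB2oe1.11.5, 0.13 for DPB2oe12.1.5 and 0.26 for abo4-1. DESeq2 called 3, 2 and 4, all higher, 10, 4 and 8 had an unadjusted p under 0.05, and 20, 13 and 18 of the 20 estimates were above 0. RNR1, the large subunit of ribonucleotide reductase, had 90.8, 74.8 and 80.5 CPM in DPB2oe1.11.5 against 41.7, 50.3 and 49.7 CPM in Col-0 (0.80 ± 0.16, adjusted p = 0.0392). Without any 1 of 5 of the 6 libraries this ended (adjusted p = 0.109 to 0.2075 for RNR1), with replicate 2 of DPB2oe1.11.5 the exception. It also rose in abo4-1, with 88.3, 102 and 103 CPM (1.05 ± 0.16, adjusted p = 0.0061). In DPB2oe12.1.5 RNR1 had 82.96, 96.45 and 63.9 CPM, wholly above Col-0 without passing (0.78 ± 0.16, adjusted p = 0.0541). TSO2, a small subunit of the same enzyme, measured 506, 793 and 534 CPM in abo4-1 against 75.3, 92.1 and 89.8 CPM in Col-0 (2.83 ± 0.25, adjusted p = 6.14e-05). In DPB2oe12.1.5 it had 263, 209 and 167 CPM (1.32 ± 0.24, adjusted p = 0.0305), a call that ended without any 1 of 5 of the 6 libraries (adjusted p = 0.0832 to 0.143 for TSO2), with its own replicate 3 the exception. That call also ended with log2 LHY in the model (TSO2 at 0.96, adjusted p = 0.0519). In DPB2oe1.11.5 TSO2 had 139, 217 and 132 CPM, wholly above Col-0 without passing (0.93 ± 0.24, adjusted p = 0.0952). CDC45, part of the replicative helicase, had 7.12, 7.18 and 6.59 CPM in abo4-1 against 2.97, 3.52 and 3.51 CPM in Col-0 (1.07 ± 0.17, adjusted p = 0.00931). It lost the call without replicate 1 of Col-0 (adjusted p = 0.0567 for CDC45), with the 6 libraries alone (0.0517) and without the 4 libraries of highest LHY (0.0524).

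Of the 10 A-type cyclins, which act from S phase onwards, 9 were tested and edgeR called 0 in each mutant. Their medians were 0.45 for DPB2oe1.11.5, 0.36 for DPB2oe12.1.5 and 0.76 for abo4-1. Unadjusted p values under 0.05 numbered 5, 2 and 6, and DESeq2 called 1, 0 and 0. The list of 10 regulators upstream of D-type cyclins holds ANT, SHR, SCR, 3 cytokinin response regulators and 4 stomatal factors. Of these edgeR and DESeq2 called 0 in each mutant, with medians of 0.12, 0.16 and 0.14 and 1, 3 and 3 unadjusted p values under 0.05. Among 3 root hair markers EXPA7 fell in DPB2oe1.11.5 (-1.94 ± 0.39, adjusted p = 0.0409), a call that ended without any 1 of the 6 libraries (adjusted p = 0.0658 to 0.178 for EXPA7) and with library totals (0.0502). The list's sum was 2.79 to 4.02 CPM there, 7.34 to 12.2 CPM for DPB2oe12.1.5, 6.28 to 8.01 CPM for abo4-1 and 6.67 to 7.07 CPM for Col-0. The sum of 4 green tissue markers was 25280 to 32980 CPM for DPB2oe1.11.5, 30000 to 40740 CPM for DPB2oe12.1.5 and 34120 to 40240 CPM for abo4-1, all below the 42120 to 45350 CPM of Col-0. RBCS1A weighed most in these sums, with a mean of 25520 CPM in Col-0. Of the 4 green tissue estimates 0, 0 and 1 were above 0. The mean of LHCB2.1 in abo4-1 was 7498 CPM, against 7170 CPM in Col-0. Of the 4 green tissue markers edgeR called 0, DESeq2 called 1, 0 and 0, and 2, 1 and 1 had an unadjusted p under 0.05. The sum of 4 shoot meristem markers was 9.65 to 15.5 CPM for DPB2oe1.11.5, 15.1 to 17.2 CPM for DPB2oe12.1.5, 15.98 to 22.1 CPM for abo4-1 and 11.95 to 15.7 CPM for Col-0, where 1 marker was at 0. Of its 2 tested markers edgeR called 0, with 0, 0 and 1 at an unadjusted p under 0.05 and 0, 0 and 1 called by DESeq2. The part of these cells in the D-type cyclin levels was not tested.

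**Figure D5:**
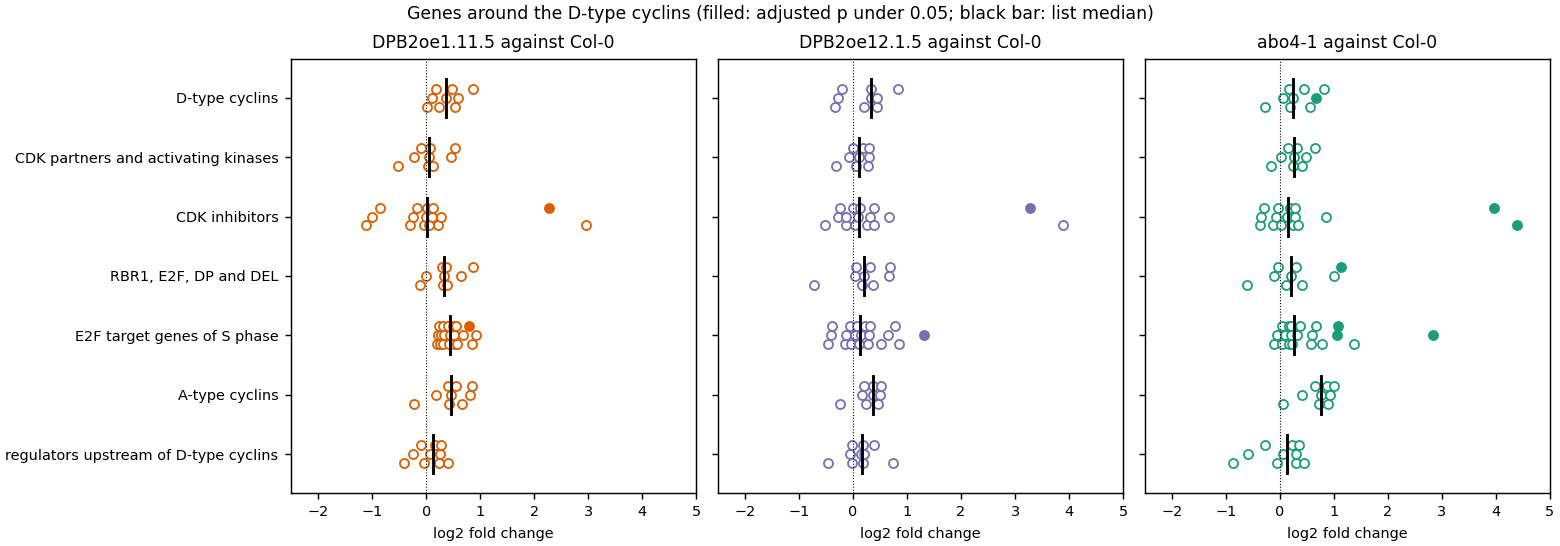
Log2 fold changes against Col-0 of the tested genes on 7 lists, one panel per mutant, where each point is a gene, filled where the adjusted p is under 0.05, and the black bar is the list's median. The filled points at 2.28, 3.27 and 4.39 among the inhibitors are SMR7, and the 1 filled D-type cyclin is CYCD3;1 in abo4-1.

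The 5 loci whose log2 CPM followed CYCD3;1 most closely over the 12 libraries were AT4G02110 (Pearson r 0.95), AT1G30690 (0.94), QKY (0.90), KCS17 (0.90) and AT1G59930 (0.89). The correlations describe these 12 libraries, which share genotypes and so are not independent points. Of the 5, edgeR called AT4G02110 and KCS17 in abo4-1 (1.45, adjusted p = 0.000115, and 2.63, adjusted p = 0.0147), beside 0.783% of all loci. The 5 were picked for following a gene that rose in abo4-1, so calls among them there are no separate result. Neither call was refitted under the other settings. No other D-type cyclin was near the top. Their r with CYCD3;1 ran from -0.14 for CYCD5;1 to 0.49 for CYCD4;1, at ranks 13611 and 1222 of 19923 loci.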

How the data were processed

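Whole-seedling mRNA was read on an Ion Torrent Proton from stranded, single-end libraries, per the labels' protocols. The authors deposited a raw read count for each locus, and reads with several equal hits had been taken out before counting, per the file headers. The build was TAIR10, per the submitters' processing notes. The aligner, and whether counting used strand, is not given in the sources used here. Mapped reads were 90.3% to 95.6% of all reads, and those taken out 2.09% to 3.01% of the mapped ones. Titles of DPB2oe1.11.5 libraries end the line name in another digit than the genotype label, which was used.

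The software was edgeR 4.0.16 under R 4.3.3: filterByExpr by group (19924 loci kept), TMM factors, robust glmQLFit with a mean per genotype over all 12 libraries (8 residual degrees of freedom, common biological coefficient of variation 0.226) and glmQLFTest. The Benjamini-Hochberg adjustment covered every locus kept, with calls under 0.05. TPM came from the counts and the lengths in the deposited files, without TMM. Positions and sequences are RefSeq TAIR10.1, which matched 32835 of the 33602 loci. A count of 0 was given a limit of 3 counts. Upstream sequence of the other members is not reported here.

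The members and gene lists were chosen with earlier results of these data known. Named genes were all members, up to 4 called genes of each list with the lowest adjusted p against Col-0, DPB2, POL2A, LHY and PRR5, and the 5 loci most correlated with CYCD3;1 (log2 CPM, prior count 2). SHR, the marker genes called and loci overlapping a member were added after their values were seen. Lists of markers covered stomatal lineage, root meristem and endodermis, root hair, shoot meristem, green tissue and proliferating cells. PRR5, a clock gene that peaks later in the day than LHY, ran from 0.279 to 51.8 CPM. Deviations of same-numbered libraries from their group means had correlations over 0.1 in each of 3 pairs for DPB2oe1.11.5 with abo4-1 alone (0.14, 0.55 and 0.35), so the replicate block is given beside results of that comparison where it changes a call. The labels name no shared batch. Alternatives were RLE, upper-quartile and no scaling factors, other filters, DESeq2 1.42.0, the 6 libraries of a comparison alone, a replicate block, log2 LHY as a covariate, leaving out the 4 libraries of highest LHY, and leaving out each library.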

Additional observations from a re-analysis of the deposited data

How the results depend on the processing

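Of the 54 member fold changes (9 members, 6 comparisons), all kept their direction and side of the threshold with DESeq2, RLE and upper-quartile scaling, a filter of 1 CPM in 3 libraries and the replicate block. With the block CYCD3;1 in abo4-1 had an adjusted p of 0.0251, and the block changed no member call. Correlations of same-numbered deviations with Col-0 were -0.22, -0.22 and 0.14 for DPB2oe1.11.5, 0.00, -0.02 and -0.03 for DPB2oe12.1.5, and 0.33, -0.03 and 0.23 for abo4-1. Whether same-numbered samples share more than a number is not stated by the labels, and these correlations cannot show it. Against Col-0, DEL3 in abo4-1 lost its call under the block (adjusted p = 0.0534). The number of members called in abo4-1 against Col-0 was 0 with library totals and with the 6 libraries alone, instead of 1, and 0 in each fit without 1 library. Between the DPB2oe lines it ran from 0 to 1 without 1 library. Of the 17 other called results named from the gene lists, none turned round. Fits without 1 library kept 61 of their calls and lost 41. The other settings lost 14 more: 6 for SHR, 3 for DEL3, 2 for CDC45 and 1 each for EXPA7, TSO2 (DPB2oe12.1.5) and SMR5, which did not pass the filter with the 6 libraries alone and has no value there. Library totals were chosen as a setting after seeing the data.

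Genes called moved by over 1.5 times in these settings. For DPB2oe1.11.5 against Col-0 (141), there were 215 with no filter, 645 with DESeq2, 221 with the 6 libraries alone, 925 without the 4 libraries of highest LHY and 560 with the LHY covariate. For DPB2oe12.1.5 against Col-0 (85), there were 180 with no filter, 708 with DESeq2, 152 with the replicate block and 47 without those 4. For abo4-1 against Col-0 (156), there were 308 with DESeq2 and 99 with the 6 libraries. For DPB2oe1.11.5 against DPB2oe12.1.5 (6), there were 115 with no filter, 670 with DESeq2, 1 with the 6 libraries, 17 with the block, 1042 without those 4 and 150 with the covariate. For DPB2oe1.11.5 against abo4-1 (327), there were 923 with DESeq2, 103 with the 6 libraries, 1065 without those 4 and 967 with the covariate. For DPB2oe12.1.5 against abo4-1 (142), there were 222 with no filter, 646 with DESeq2, 43 with the 6 libraries and 74 without those 4. Without 1 library the counts ran, in the same order of comparisons, from 21 to 286, 15 to 95, 65 to 94, 3 to 1119, 79 to 572 and 49 to 207. Leaving out the 4 libraries leaves 1 of DPB2oe12.1.5, and that lone library is taken to vary as the rest do. With library totals the median of all genes moved by 0.255 for DPB2oe1.11.5 against Col-0, by 0.159 against DPB2oe12.1.5 and by 0.22 against abo4-1. Higher calls were then 152 of 203 in the first of these (35 of 141 with TMM), 212 of 333 in the last (72 of 327), and 49 of 81 for DPB2oe12.1.5 against Col-0 (40 of 85).

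Signs turned for some member estimates, none of them called and not all of them near 0. As reported, DPB2oe12.1.5 against Col-0 had CYCD5;1 at 0.331, CYCD4;1 at -0.329 and CYCD1;1 at -0.274. The first of these is the family's median in that comparison. Without the 4 libraries of highest LHY, CYCD2;1 was at -0.025 for DPB2oe1.11.5 against Col-0, CYCD4;1 at 0.107 and CYCD5;1 at -0.063 for DPB2oe12.1.5 against Col-0. Between the DPB2oe lines CYCD3;2 was then at -0.004, CYCD5;1 at 0.289 and CYCD6;1 at -0.149, and for DPB2oe1.11.5 against abo4-1 CYCD1;1 was at 0.005 and CYCD4;2 at -0.018. With the covariate, DPB2oe12.1.5 against Col-0 had CYCD1;1 at 0.019, CYCD4;1 at 0.185 and CYCD4;2 at 0.05. For DPB2oe1.11.5 against abo4-1, library totals gave 0.183 for CYCD1;1 and 0.189 for CYCD2;1, and no filter gave 0.01 for CYCD2;1. Without 1 library, ranges that cross 0 were -0.032 to 0.157 for CYCD2;1 and -0.013 to 0.228 for CYCD5;1 (DPB2oe1.11.5 against Col-0), -0.6 to 0.31 for CYCD4;1 and -0.606 to 0.075 for CYCD4;2 (DPB2oe12.1.5 against Col-0), -0.011 to 0.091 for CYCD2;1 (abo4-1 against Col-0), -0.013 to 0.071 for CYCD3;2 and -0.11 to 0.145 for CYCD6;1 (between the DPB2oe lines), and -0.182 to 0.163 for CYCD1;1, -0.079 to 0.107 for CYCD2;1, -0.5 to 0.186 for CYCD4;1 and -0.023 to 0.153 for CYCD4;2 (DPB2oe1.11.5 against abo4-1). The cause was not tested. Depth limits the CYCD4 pair and CYCD7;1 most.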
